A study of Mus musculus with 12 samples.

Results

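The expression of 9 genes of the fibroblast growth factor (FGF) family was examined in osteoblasts treated with parathyroid hormone (PTH) and in osteoblastic cells that overexpress *Slpi*. The genes were taken by name, with no threshold on their values: the ligands *Fgf1*, *Fgf2*, *Fgf7*, *Fgf9* and *Fgf18* and the receptors *Fgfr1*, *Fgfr2*, *Fgfr3* and *Fgfrl1*. They are 9 of 23284 genes in the osteoblast table and of 24346 genes in the table of the cell line. All 9 have a row in each of the 12 libraries. The first experiment had 3 vehicle and 3 PTH libraries of osteoblasts, taken from Col2.3-ECFP mice, in which a fragment of the type I collagen promoter drives a cyan reporter, by sorting live cells that were ECFP+ but Lin- and CD45-. These mice were females of 12 weeks that received PBS or PTH(1-34), the latter at a daily 40 µg/kg, with 5 injection days in each of 3 weeks, and their cells were taken a day after the last injection. The second experiment had 3 mock and 3 *Slpi* libraries of MC3T3-E1, a clonal line from mouse calvaria, made as stable puromycin-resistant cells with a retrovirus, pMX-IRES-Puro for mock and pMX-Slpi-IRES-Puro for *Slpi*. Whether the MC3T3-E1 replicates were separate infections is not given in the sources used here, and the labels do not tie the osteoblast libraries to single animals, so *p* values measure the spread between these libraries, which may be technical in part.

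FGF ligands are secreted proteins that bind FGF receptors together with heparan sulphate on the cell surface. FGFR1, FGFR2 and FGFR3 are receptor tyrosine kinases that pass the signal through FRS2, GRB2 and RAS to the ERK kinases, and the Sprouty and dual-specificity phosphatase genes are induced in turn and dampen the signal. FGFRL1 resembles the other receptors outside the cell but lacks the tyrosine kinase domain. In bone, FGF2, FGF9 and FGF18 are known regulators of osteoblast and chondrocyte growth, FGF7 is a stromal factor that acts mainly on the epithelial form of FGFR2, and FGF1 can bind all 4 kinase receptors of the family, including FGFR4.

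All levels are FPKM, which are scaled to transcript length, so that genes of 1 library can be set side by side. Per library, all FPKM added up to 400838.8 to 462460.2 in osteoblasts and 541932.2 to 599746.4 in MC3T3-E1 cells. The number of reads is unknown, but the steps between low values gave relative depths of 0.787 to 1.402 in osteoblasts and 0.87 to 1 in MC3T3-E1 cells. *Slpi* had an FPKM of 377 to 396 in the mock and 1848 to 2105 in the *Slpi* libraries, and of 1.64 to 2.62 with vehicle and 19.8 to 37.5 with PTH. Osteoblast markers were present in all osteoblast libraries, except that *Col1a1* and *Col1a2* are listed at 0 in vehicle replicate 3 and in all PTH libraries; both were at 24170 FPKM or more in the other vehicle libraries, so these zeros may be failed estimates, and the FPKM totals leave them out there. With those 2 left out, the other 9 osteoblast markers summed to 29321 to 36226 FPKM with vehicle and to 42605, 37211 and 62578 FPKM in PTH replicates 1, 2 and 3. Of all 11 osteoblast markers, 2 were called higher with PTH (adjusted *p* under 0.05 by limma). Over all genes tested, 6.38% were called higher and 8.85% lower. Markers of other cells also differed, and their part in the results was not tested. Of the neutrophil list, 7 of 10 tested genes were called higher with PTH, and the sum of all 10 was 377 to 470 FPKM with vehicle against 2362, 1971 and 702 FPKM with PTH. The 6 megakaryocyte markers, 1 of them called higher, summed to 3.69 to 7.13 FPKM with vehicle and to 187, 150 and 6.74 FPKM in PTH replicates 1, 2 and 3. The 6 T and NK lymphocyte markers, with 3 of 5 tested genes called lower, summed to 82.0 to 125 FPKM with vehicle and 0.845 to 18.9 FPKM with PTH, and the 6 heart muscle markers summed to 2835 FPKM in PTH replicate 2 alone and to 16.7 FPKM or less in the other osteoblast libraries. The 7 chondrocyte markers summed to 724 to 858 FPKM with vehicle and 868 to 1020 FPKM with PTH, with 3 of 7 called higher. All 6 T and NK lymphocyte markers are listed at 0 in each MC3T3-E1 library.

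In vehicle-treated osteoblasts, receptor mRNAs stood far above most ligand mRNAs. *Fgfr1* was the most abundant member, with an FPKM of 96.5 ± 8.02 (SD, n = 3), followed by *Fgfr2* with 29.1 ± 1.74, *Fgf1* with 16.7 ± 0.272, *Fgfr3* with 8.11 ± 1.26 and *Fgfrl1* with 5.17 ± 0.692. The ranges of these 5 genes over the 3 vehicle libraries did not overlap between neighbours in the order. Below them, *Fgf7* (1.33 ± 0.763), *Fgf18* (1.28 ± 0.445) and *Fgf2* (1.10 ± 0.951) could not be ordered, since their ranges overlapped. *Fgf9* was the lowest, with 0.213 ± 0.0216. *Fgf1* made up 80.5 to 81.7% of the summed FPKM of the 5 ligands in these libraries.

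MC3T3-E1 cells showed the same leading receptor but another leading ligand. In mock cells the order was *Fgfr1* (119 ± 1.67 FPKM, SD, n = 3), *Fgf7* (87.5 ± 4.11), *Fgfr2* (57.8 ± 1.84), *Fgfrl1* (36.5 ± 1.39) and *Fgfr3* (14.5 ± 0.973), with no overlap between neighbours. *Fgf2* (1.20 ± 0.213) and *Fgf18* (1.17 ± 0.140) overlapped each other, *Fgf1* stood at 0.223 ± 0.0220, and *Fgf9* had an FPKM of 0.018, 0 and 0.019. *Fgf7* made up 97.0 to 97.3% of the ligand FPKM of mock cells, where *Fgf1* made up 0.220 to 0.272%. *Fgfr4*, the remaining kinase receptor, was at or below 0.119 FPKM in every library of both experiments. The experiments were normalized separately, with different library kits per the labels (the study's methods name the osteoblast kit for both), and levels were not tested between them.

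**Figure D1:**
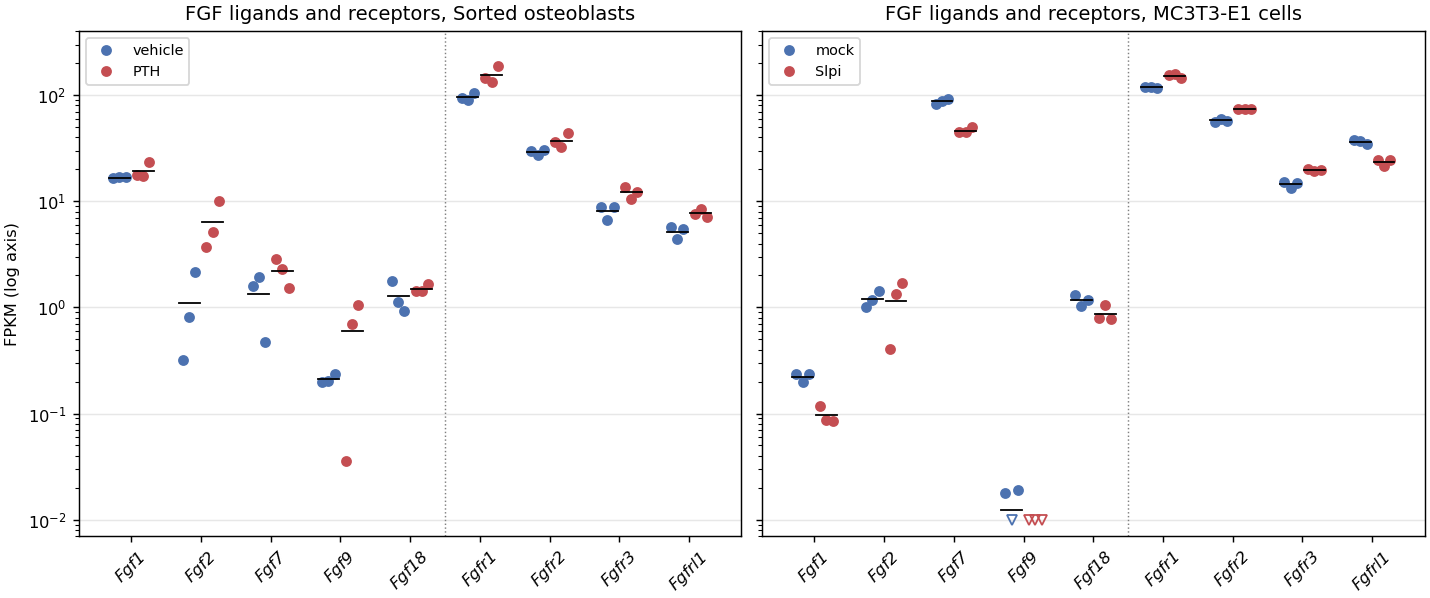
FPKM of the 5 ligands (left of the dotted line) and 4 receptors (right of it) in each library, on a log axis, with sorted osteoblasts in the left panel and MC3T3-E1 cells in the right one. Points are libraries 1 to 3 from left to right within each group, black bars are group means, and open triangles at the foot are values listed at 0. *Fgf1* leads the ligands in osteoblasts and *Fgf7* in MC3T3-E1 cells, and *Fgfr1* is the highest member in all 12 libraries.

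The first comparison asked which genes differ in osteoblasts after 3 weeks of intermittent PTH. Of the 9 members, *Fgf2*, *Fgfr1* and *Fgfrl1* rose at an adjusted *p* under 0.05 (limma on log2(FPKM + 1), Benjamini-Hochberg over the 13004 genes that reached an FPKM of 1 in any of the 6 libraries), and none of the other 6 passed. Over all genes tested, 6.38% were called higher and 8.85% lower. All 9 members had a log2 fold change above 0, with a median of 0.50 against 0.01 over all genes, but that of *Fgf1*, *Fgf18* and *Fgfr2* fell below 0 when each library was scaled by 9 osteoblast markers. That scaling shifted the median of all genes to -0.38. *Fgf9* counts among these members only through PTH replicate 3, the single library in which it reached an FPKM of 1. No member was called lower by limma, and before adjustment 5 were higher and 0 lower at a *p* under 0.05, as were 4353 of 13004 genes in either direction. In 6 of 9 members all PTH libraries lay above all vehicle libraries, as did 19.5% of all genes tested. These are bulk samples, in which fewer cells of a type and less RNA per cell cannot be told apart.

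*Fgf2*, which encodes basic FGF and lies on chromosome 3 from 37348477 to 37410106 (RefSeq, GRCm38.p6), had an FPKM of 0.321, 0.816 and 2.16 in vehicle replicates 1, 2 and 3 and of 3.73, 5.12 and 10.1 in PTH replicates 1, 2 and 3. All PTH libraries were above all vehicle libraries, and both groups varied widely within themselves. The mean was 5.74-fold higher with PTH, and the log2 fold change was 1.80 (standard error, SE, 0.408, adjusted *p* = 0.0331 by limma, 95% interval 0.84 to 2.76). If each step of the FPKM is 1 read, which may be too low, the values stood for 1, 2 and 9 reads in the vehicle and 13, 20 and 44 reads in the PTH libraries, so that the vehicle level is known only roughly. A two-sided exact permutation test gave *p* = 0.10, the smallest that 3 libraries against 3 allow. By its mean *Fgf2* was eighth among the members with vehicle, where its range overlapped those of *Fgf7* and *Fgf18*. It was sixth by mean with PTH, where its range overlapped that of *Fgfrl1*. PTH replicate 3 had the highest *Fgf2* level and the highest osteoblast marker sum. The megakaryocyte marker sums were 187, 150 and 6.74 FPKM in PTH replicates 1, 2 and 3. Which cells the *Fgf2* reads came from was not tested. With the osteoblast marker scaling the log2 fold change was 1.50 (adjusted *p* = 0.0411 by limma), and over 16 alternatives the adjusted *p* lay between 0.00856 and 0.14 and was under 0.05 in 9. Leaving out any single library other than vehicle replicate 3 ended the call, with a log2 fold change between 1.46 and 2.14 over the 6 omissions and adjusted *p* of 0.116, 0.117, 0.0546, 0.0518 and 0.0506 without vehicle replicates 1 and 2 and PTH replicates 1, 2 and 3. *Nudt6* lies antisense to *Fgf2* and overlaps it by 5125 bases at the 3' end, and the osteoblast kit does not mark strand, so that reads of the pair cannot be told apart in the overlap. *Nudt6* had an FPKM of 1.99, 4.37 and 4.73 with vehicle and 6.15, 5.63 and 5.29 with PTH, a log2 fold change of 0.57 (adjusted *p* = 0.168 by limma).

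*Fgf1*, the most abundant ligand of osteoblasts, encodes acidic FGF. Its FPKM was 16.4, 16.9 and 17.0 with vehicle and 17.5, 17.1 and 23.3 with PTH. The groups did not overlap, but the first 2 PTH libraries lay within 1 FPKM of the highest vehicle library, and the log2 fold change of 0.18 (adjusted *p* = 0.384 by limma, 95% interval -0.14 to 0.50) fell to 0.05 without PTH replicate 3. *Fgf7*, or keratinocyte growth factor, had an FPKM of 1.59, 1.93 and 0.474 with vehicle and 2.84, 2.28 and 1.54 with PTH, and the groups overlapped (log2 fold change 0.50, adjusted *p* = 0.281 by limma, 95% interval -0.20 to 1.21). *Fgf18*, a ligand that acts on chondrocytes and osteoblasts, had an FPKM of 1.78, 1.13 and 0.933 with vehicle and 1.44, 1.42 and 1.65 with PTH. This difference was within the spread of the vehicle libraries (log2 fold change 0.15, adjusted *p* = 0.613 by limma, 95% interval -0.31 to 0.61).

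*Fgf9*, whose product binds FGFR3 and other receptors, was close to the detection limit. Vehicle libraries had an FPKM of 0.199, 0.202 and 0.238, and PTH libraries had 0.0356, 0.698 and 1.05. The PTH libraries thus held both the lowest and the highest values. On the same scale of steps these values were 5, 4 and 8 steps in the vehicle and 1, 22 and 37 steps in the PTH libraries. The gene entered the test through PTH replicate 3 only, and its log2 fold change of 0.34 had an adjusted *p* of 0.451 by limma (95% interval -0.36 to 1.04). The 95% intervals of *Fgf7*, *Fgf9* and *Fgf18* reached up to 1.21, 1.04 and 0.61, so the data do not show that these ligands were alike in both groups.

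Among the receptors, *Fgfr1* had the largest log2 fold change, except with quantile normalization and without PTH replicate 3, where *Fgfrl1* had a larger one (0.58 against 0.41 and 0.55 against 0.53). Its FPKM was 94.6, 89.7 and 105 with vehicle and 146, 132 and 187 with PTH, without overlap. The mean was 1.61-fold higher, with a log2 fold change of 0.67 (SE 0.144, adjusted *p* = 0.03 by limma). *Fgfrl1*, the receptor without a kinase domain, had an FPKM of 5.68, 4.38 and 5.44 with vehicle and 7.59, 8.38 and 7.13 with PTH. Its groups did not overlap either, and the log2 fold change of 0.50 (SE 0.135, adjusted *p* = 0.0494 by limma) was just past the threshold. *Fgfr3* had an FPKM of 8.86, 6.66 and 8.81 with vehicle and 13.7, 10.5 and 12.3 with PTH. Its log2 fold change of 0.53 (adjusted *p* = 0.0596 by limma) was the largest that missed the threshold among the receptors. *Fgfr2*, the second receptor by level, had an FPKM of 29.9, 27.2 and 30.4 with vehicle and 35.9, 32.2 and 43.8 with PTH, again without overlap but with a log2 fold change of 0.34 (adjusted *p* = 0.127 by limma).

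The receptor calls depended on the scaling, whereas *Fgf2* kept its call under each scaling. *Fgfr1* kept its call with libraries scaled to a common sum (adjusted *p* = 0.0366 by limma) or centred on the median gene (0.0272). With quantile normalization it lost the call (0.0627). *Fgfrl1* lost its call in the first 2 of these (0.102 and 0.0606) and kept it in the third (0.0353). With the osteoblast marker scaling, which shifted the median of all genes to -0.38, the log2 fold changes of *Fgfr1*, *Fgfr3* and *Fgfrl1* were 0.20, 0.11 and 0.10 and that of *Fgfr2* was -0.12, and the adjusted *p* by limma were 0.186, 0.673, 0.741 and 0.473. Relative to that shift all 4 remained above the median gene. The 9 markers behind this scaling all had a log2 fold change above 0 with PTH, and *Alpl* (0.605) and *Spp1* (0.81) were called higher. The scaling may thus also take out part of a treatment difference. Over the 16 alternatives the adjusted *p* lay between 0.0151 and 0.186 for *Fgfr1*, which kept its call in 9, and between 0.0353 and 0.741 for *Fgfrl1*, which kept it in 2. *Fgfr1* lost its call without vehicle replicate 1 (adjusted *p* = 0.115), vehicle replicate 2 (0.113) or PTH replicate 1 (0.0727), and *Fgfrl1* lost its call without any 1 of the 6 libraries (0.0642 to 0.15).

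**Figure D2:**
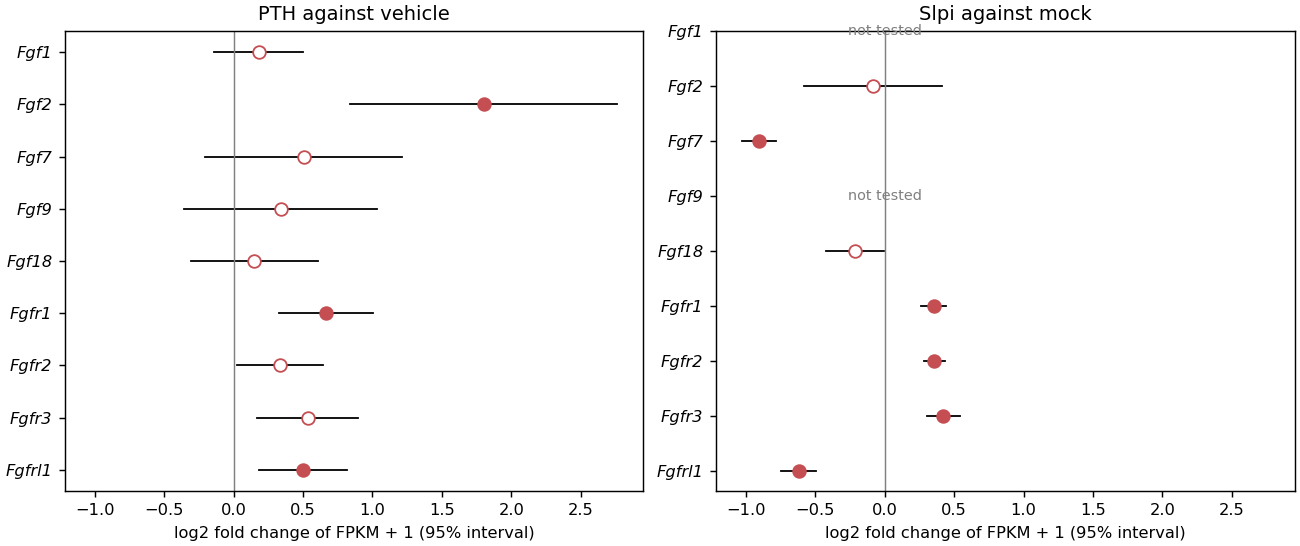
Log2 fold change of FPKM + 1 for each member, PTH against vehicle (left) and *Slpi* against mock (right), from limma with 3 libraries per group. Bars are 95% intervals, filled points passed an adjusted *p* under 0.05, and *Fgf1* and *Fgf9* were below the filter on low values in MC3T3-E1 cells. With PTH all 9 points lie above 0. Those of *Fgf1*, *Fgf18* and *Fgfr2* fall below 0 with the osteoblast marker scaling, which shifted the median of all genes to -0.38. With *Slpi* 3 receptors lie above 0, and *Fgfrl1*, *Fgf7*, *Fgf18* and *Fgf2* lie below 0, of which *Fgf18* and *Fgf2* did not pass.

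The 4 receptors summed to 128 to 150 FPKM with vehicle and to 183 to 250 FPKM with PTH. *Fgfr1* made up 68.0 to 70.2% of this sum with vehicle and 71.9 to 74.7% with PTH, and *Fgfr2* made up 20.3 to 21.5% and 17.5 to 17.6%. The ratio of *Fgfr1* to *Fgfr2* was accordingly 3.16 to 3.47 with vehicle and 4.08 to 4.26 with PTH, without overlap. Such a ratio does not change when a library is multiplied by 1 factor, but quantile normalization can change it. With that setting the log2 fold changes of *Fgfr1* and *Fgfr2* were 0.413 and 0.261, against 0.666 and 0.335 in the main fit. The summed FPKM of the 3 kinase receptors was 23.5 to 28.2 times that of *Fgfrl1* with vehicle and 20.9 to 34.0 times with PTH, so that these groups overlapped. Among the ligands, *Fgf2* made up 1.58 to 10.4% with vehicle and 14.6 to 26.8% with PTH, and *Fgf1* made up 80.5 to 81.7% and 61.9 to 68.6%. These shares were not tested.

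The second comparison asked what forced expression of *Slpi* does to osteoblastic cells. In MC3T3-E1 cells *Fgfr1*, *Fgfr2* and *Fgfr3* rose and *Fgf7* and *Fgfrl1* fell at an adjusted *p* under 0.05 (limma, Benjamini-Hochberg over 11466 genes), among 7 members that passed the filter on low values. *Fgf2* and *Fgf18* did not pass the test, and *Fgf1* and *Fgf9* were below the filter. Calls were frequent here, since 31.9% of all genes tested were called higher and 28.9% lower, and the 3 higher and 2 lower of 7 members are to be read against those shares. The median log2 fold change of the tested members was -0.08, against 0.00 over all genes. All 5 calls stood under each of the 15 alternatives.

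*Fgf7* had the largest log2 fold change of the 7 tested members. Its FPKM was 83.4, 87.4 and 91.6 in the 3 mock libraries and 44.6, 44.6 and 49.7 in the 3 *Slpi* libraries. The *Slpi* libraries lay far below the mock libraries, and the spread within each group was small beside the gap. The mean was 0.529 of the mock mean, with a log2 fold change of -0.90 (SE 0.0522, adjusted *p* = 5.4e-06 by limma, 95% interval -1.02 to -0.79). *Fgf7* thus passed from the second to the third place among the members, below *Fgfr2*, but still made up 94.8 to 97.1% of the ligand FPKM in *Slpi* cells. The summed FPKM of the 5 ligands was 86.0 to 94.5 in mock and 45.9 to 52.2 in *Slpi* cells.

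The other ligands were low in this line. *Fgf18* had an FPKM of 1.31, 1.03 and 1.18 in mock and 0.800, 1.05 and 0.771 in *Slpi* cells, and the groups overlapped (log2 fold change -0.21, adjusted *p* = 0.0738 by limma, 95% interval -0.43 to -0.003). *Fgf2* had an FPKM of 1.01, 1.16 and 1.43 in mock and 0.408, 1.33 and 1.72 in *Slpi* cells. *Slpi* replicate 1 held the lowest and *Slpi* replicate 3 the highest value, and the log2 fold change of -0.08 (adjusted *p* = 0.761 by limma, 95% interval -0.58 to 0.42) was 0.20 without *Slpi* replicate 1. The antisense gene *Nudt6* was lower in *Slpi* cells, with a log2 fold change of -0.38 (adjusted *p* = 0.00566 by limma); this kit keeps the strand per the labels, but the study's methods name the unstranded osteoblast kit for both experiments. *Fgf1* had an FPKM of 0.234, 0.198 and 0.238 in mock and 0.117, 0.086 and 0.085 in *Slpi* cells, so that all *Slpi* libraries were lower (exact permutation *p* = 0.10, two-sided, the smallest possible). With no filter on low values its log2 fold change was -0.16 (adjusted *p* = 0.00634 by limma), a value that the pseudocount of 1 keeps small at such levels. *Fgf9* is listed at 0 in mock replicate 2 and in all *Slpi* libraries.

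The 3 kinase receptors rose by similar amounts. *Fgfr1* had an FPKM of 120, 119 and 117 in mock and 153, 158 and 144 in *Slpi* cells. Its mean was 1.28-fold higher, with a log2 fold change of 0.35 (SE 0.0381, adjusted *p* = 1.0e-04 by limma). *Fgfr2* had an FPKM of 56.1, 59.7 and 57.5 in mock and 74.6, 74.4 and 73.8 in *Slpi* cells, a log2 fold change of 0.36 (adjusted *p* = 4.8e-05 by limma). *Fgfr3* had an FPKM of 15.1, 13.3 and 15.0 in mock and 20.2, 19.1 and 19.8 in *Slpi* cells, a log2 fold change of 0.42 (adjusted *p* = 2.1e-04 by limma). In each of the 3 genes all *Slpi* libraries were above all mock libraries, as were those of 34.9% of all genes tested. *Fgfrl1* differed the other way, with an FPKM of 37.8, 36.7 and 35.0 in mock and 24.3, 21.4 and 24.5 in *Slpi* cells. Its mean was 0.642 of the mock mean, with a log2 fold change of -0.62 (SE 0.0561, adjusted *p* = 4.3e-05 by limma).

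The balance between kinase receptors and the receptor without a kinase therefore differed between mock and *Slpi* cells. The summed FPKM of *Fgfr1*, *Fgfr2* and *Fgfr3* was 5.07 to 5.42 times that of *Fgfrl1* in mock and 9.72 to 11.7 times in *Slpi* cells, without overlap. *Fgfrl1* made up 15.6 to 16.5% of the receptor FPKM in mock and 7.84 to 9.33% in *Slpi* cells. *Fgfr1* made up 51.9 to 52.5% and 55.0 to 57.9%, whereas the ratio of *Fgfr1* to *Fgfr2* overlapped, with 1.99 to 2.15 in mock and 1.96 to 2.12 in *Slpi* cells. In sorted osteoblasts the same kinase to *Fgfrl1* ratio was above 20 in every library.

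**Figure D3:**
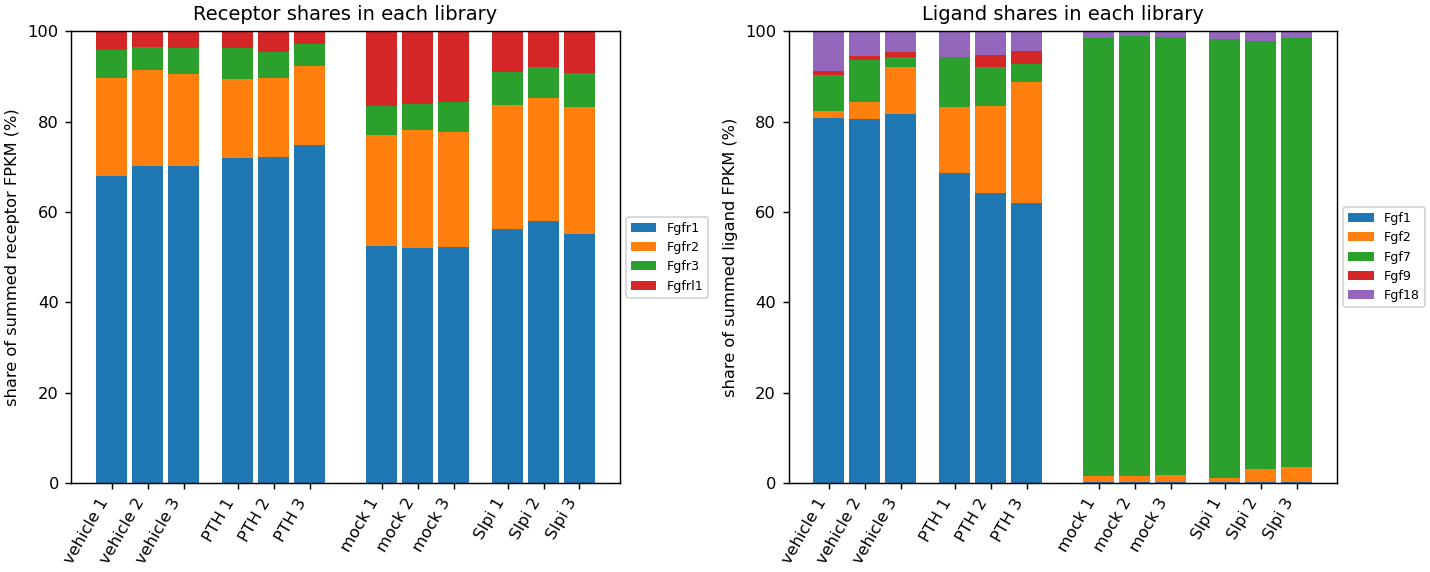
Share of each receptor in the summed FPKM of *Fgfr1*, *Fgfr2*, *Fgfr3* and *Fgfrl1* (left) and of each ligand in the summed FPKM of the 5 ligands (right), in percent, with 1 bar per library. The *Fgfrl1* share is smaller in all *Slpi* than in all mock libraries, and the *Fgf2* share is larger in all PTH than in all vehicle libraries.

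The sequences before the start sites of *Fgf7*, *Fgfrl1* and *Fgfr2* are shown because the first 2 genes fell and the third rose in *Slpi* cells, which allows their promoters to be compared. They hold the 250 bases before the RefSeq start site, 5' to 3' on the strand of the gene, with CpG dinucleotides in capitals. They lie in GRCm38.p6 at chr2:126034408-126034657 (plus strand), chr5:108693979-108694228 (plus strand) and chr7:130266809-130267058 (minus strand).
Fgf7: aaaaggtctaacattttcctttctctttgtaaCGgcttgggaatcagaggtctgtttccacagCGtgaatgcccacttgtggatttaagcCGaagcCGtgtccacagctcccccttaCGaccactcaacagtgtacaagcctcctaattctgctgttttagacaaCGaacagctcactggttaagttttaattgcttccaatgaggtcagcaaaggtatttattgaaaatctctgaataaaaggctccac
Fgfrl1: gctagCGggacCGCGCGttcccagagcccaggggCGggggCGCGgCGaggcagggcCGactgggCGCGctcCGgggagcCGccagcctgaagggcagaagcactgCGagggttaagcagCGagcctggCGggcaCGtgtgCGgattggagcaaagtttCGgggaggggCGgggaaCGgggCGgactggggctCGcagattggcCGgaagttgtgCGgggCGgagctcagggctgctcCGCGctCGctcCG
Fgfr2: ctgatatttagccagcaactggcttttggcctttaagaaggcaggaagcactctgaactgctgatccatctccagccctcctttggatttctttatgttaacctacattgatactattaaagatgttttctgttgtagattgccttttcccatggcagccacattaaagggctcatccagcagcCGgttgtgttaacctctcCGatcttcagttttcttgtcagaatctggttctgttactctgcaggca
The pair that fell together differed in base composition. The *Fgf7* window had a GC content of 43.6% and 6 CpG, and the *Fgfrl1* window had 73.6% and 30 CpG, against medians of 52.4% and 6 CpG over 32851 RefSeq windows of the same length. The *Fgfr2* window, of a gene that rose, was close to *Fgf7* in GC content with 44.0% and held 2 CpG. *Fgfr3*, which rose as well, has 2 windows that were closer to *Fgfrl1*, with 66.8% and 72.8% GC and 19 and 24 CpG. The GC box letters GGGCGG, searched on both strands, were found 4 times in the *Fgfrl1* window and not in those of *Fgf7* and *Fgfr2*. The *Fgfr3* windows held them 3 and 2 times, and 32.7% of all windows hold them. The core TGACG of the cyclic AMP response element was in none of these 3 windows and in 17.8% of all windows. Among the other members, the *Fgf2* window held 2 matches and the *Fgf9* window 1. However, the *Fgf2* window, from 37348403 to 37348652, reaches past the gene start at 37348477 given above. The *Fgf9* window, from 58072436 to 58072685, lies inside its gene, which starts at 58070671. The *Fgfr3* window with 72.8% GC also lies inside its gene. RefSeq windows were found for 7 of the 9 members, but not for *Fgf1* and *Fgfr1*.

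The relay genes carry the signal from receptor to ERK. Of 16 relay genes tested in osteoblasts 0 were called higher by limma, against 6.38% of all genes tested. At an unadjusted limma *p* under 0.05, 3 were higher, and over all genes 4353 of 13004 passed that threshold in either direction. The median log2 fold change was 0.05 against 0.01 over all genes. In MC3T3-E1 cells 5 of 18 relay genes were called higher and 5 lower, against background shares of 31.9% and 28.9%. *Frs2*, the docking protein of FGF receptors, had an FPKM of 17.2, 17.1 and 16.8 in mock and 30.9, 31.8 and 30.8 in *Slpi* cells (log2 fold change 0.83, adjusted *p* = 1.0e-06 by limma). It lies on chromosome 10, from 117070127 to 117148474, and 30 of the 36 other tested genes in the 10 Mb around it were called higher in *Slpi* cells, with a median log2 fold change of 0.62. With PTH the same stretch had 2 higher and 3 lower genes of 38, with a median of 0.03. *Hras* was higher as well (log2 fold change 0.48), while *Braf* (-0.54), *Map2k1*, the gene of MEK1 (-0.14), *Mapk3*, the gene of ERK1 (-0.30), *Plcg1* (-0.23) and *Frs3* (-0.42) were lower. *Sos1* (0.18) and *Grb2* (0.11) were called higher with small values, and *Grb2* was chosen after its values were seen. The calls of *Frs3*, *Map2k1* and *Sos1* stood in 12, 11 and 7 of the 15 alternatives.

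Feedback and target genes did not move as 1 group. With PTH, 3 of 16 tested genes were called higher and 1 lower, against 6.38% and 8.85% of all genes, and the median log2 fold change was 0.02. *Spry1*, an inhibitor of receptor tyrosine kinase signals, had an FPKM of 6.44, 4.96 and 6.76 with vehicle and 9.40 to 10.7 with PTH (log2 fold change 0.65, adjusted *p* = 0.0291 by limma). *Spry2* had 9.16, 8.88 and 10.1 with vehicle and 20.7, 18.7 and 18.8 with PTH (0.98, adjusted *p* = 0.0133 by limma). *Dusp5*, a nuclear ERK phosphatase, had 13.1, 8.60 and 15.5 with vehicle and 42.8, 32.0 and 43.0 with PTH, the largest difference of the list (1.61, adjusted *p* = 0.0139 by limma). In all 3 the PTH libraries lay above all vehicle libraries, as did those of 19.5% of all genes tested. *Dusp4* had 7.82, 9.76 and 3.90 with vehicle and 2.65, 2.92 and 2.66 with PTH (-1.05, adjusted *p* = 0.0484 by limma). *Spry4* lay lower in all PTH libraries without passing the test, with 14.8 to 16.0 FPKM against 11.5 to 12.6 (-0.34, adjusted *p* = 0.0627 by limma). It was called lower with the osteoblast marker scaling (-0.77, adjusted *p* = 0.0333 by limma), a setting that called 1802 genes lower and 74 higher. *Dusp6*, an ERK phosphatase widely used as a readout of FGF signals, had a log2 fold change of -0.19 (adjusted *p* = 0.304 by limma), *Etv4* of -0.39 (0.48) and *Etv5* of 0.15 (0.356).

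With the osteoblast marker scaling *Dusp5* kept its call (log2 fold change 1.17, adjusted *p* = 0.0271 by limma), and *Spry1* (0.24, 0.349) and *Spry2* (0.54, 0.0802) lost theirs. Over the 16 alternatives the adjusted *p* lay between 0.0251 and 0.349 for *Spry1*, 0.00835 and 0.0802 for *Spry2*, 0.00856 and 0.0776 for *Dusp5* and 0.0213 and 0.174 for *Dusp4*. Without vehicle replicate 1 or vehicle replicate 2, no gene of the 5 pathway lists was called by limma in either direction. Over all genes tested, these fits called 1 and 0 genes higher and 0 lower. At an unadjusted limma *p* under 0.05, 16 list genes were higher and 6 lower in each fit, of 62 and 63 tested. Over all genes, 3181 of 12899 and 3053 of 12835 passed that threshold in either direction.

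In *Slpi* cells 5 of 16 feedback and target genes were called higher and 5 lower, close to the 31.9% and 28.9% of all genes. *Egr1*, an immediate early gene downstream of ERK, had an FPKM of 22.8, 27.5 and 20.2 in mock and 41.9, 43.1 and 36.7 in *Slpi* cells (log2 fold change 0.77, adjusted *p* = 3.2e-04 by limma). *Spry1* had 2.18, 2.12 and 2.23 in mock and 4.11, 3.81 and 3.92 in *Slpi* cells (0.64, adjusted *p* = 4.0e-05 by limma). *Etv4* (0.47), *Spred1* (0.38) and *Spred2* (0.31) were higher, of which the last is named to complete the count. Lower were *Dusp5* (-0.51), *Flrt3* (-0.47), *Flrt2* (-0.38), *Spred3* (-0.34) and *Etv1* (-0.26), the last again to complete the count. *Spry2* (-0.03, adjusted *p* = 0.73 by limma), *Dusp6* (0.18, 0.0603) and *Etv5* (0.12, 0.0542) did not pass, and *Spry4* was below the filter, with an FPKM of 0.617 to 0.802 in mock and 0.833 to 0.864 in *Slpi* cells. *Dusp5* was thus called higher with PTH and lower with *Slpi*, and *Spry1* higher in both. The experiments were separate, and the difference between them was not tested.

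**Figure D4:**
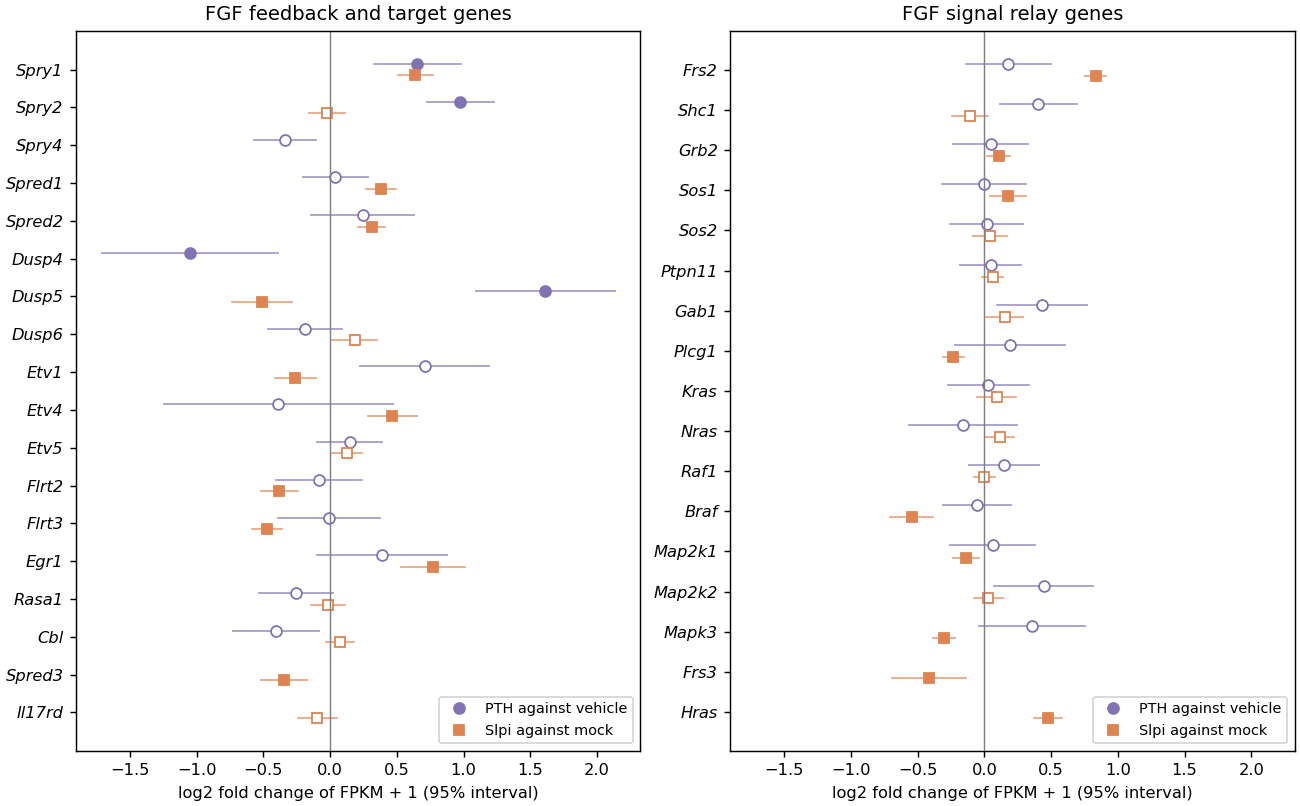
Log2 fold change of FPKM + 1 with its 95% interval for the feedback and target genes (left) and for relay genes (right) tested in at least 1 experiment, with circles for PTH against vehicle and squares for *Slpi* against mock (3 libraries per group). Filled symbols passed a limma adjusted *p* under 0.05. *Dusp5* and *Spry2* stand highest with PTH, and *Frs2* and *Egr1* with *Slpi*. Under the osteoblast marker scaling, which shifted the median of all genes to -0.38, *Etv5* falls below 0 with PTH.

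Of the 17 other FGF genes outside the members, only 3 passed the filter in osteoblasts and 0 in MC3T3-E1 cells. *Fgf13*, which encodes a non-secreted FGF homologue, had an FPKM of 2.53, 1.91 and 2.61 with vehicle and 3.98, 5.02 and 5.81 with PTH (log2 fold change 0.82, adjusted *p* = 0.0281 by limma, between 0.0228 and 0.117 over the alternatives), and is listed at 0 in all MC3T3-E1 libraries. Of the co-receptor and binding protein list, *Fgfbp3*, a carrier that releases bound FGF, was lower in *Slpi* cells (log2 fold change -0.39, adjusted *p* = 0.0117 by limma, but 0.0807 with no filter on low values, and under 0.05 in 13 of 15 alternatives), and none of the 2 tested genes was called in osteoblasts, at an unadjusted limma *p* under 0.05 either.

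The genes most like the leading members were sought over the 12 libraries by Pearson's r of log2(FPKM + 1), centred on the mean of each experiment, among 10095 genes tested in both. For *Fgf2* they were *Mef2a* (r = 0.97), *Purg* (0.97) and *Wtip* (0.96), and for *Fgf7* they were *Rdh11* (0.96), *Tgfbi* (0.95) and *Usp21* (0.93). These are descriptions over libraries that share their treatment and scaling.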

How the data were processed

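RNA-Seq values of 6 osteoblast and 6 MC3T3-E1 libraries were used. The authors mapped the reads to mm10 with TopHat2 2.0.13, Bowtie2 2.2.3 and SAMtools 0.1.19 and deposited FPKM per gene from Cuffnorm 2.2.1; the annotation and scaling option are not given in the sources used here. The labels name a stranded mRNA kit for MC3T3-E1 cells.

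Each experiment was tested apart, 3 libraries against 3, with limma 3.58.1 in R 4.3.3 on log2(FPKM + 1), eBayes with a trend, and Benjamini-Hochberg adjustment over genes that reached an FPKM of 1 in any library. A fold change on this scale understates that of low genes. Exact permutation tests and shares used Python 3.11.15. The limma model was tested on simulated data. Low FPKM steps gave relative depth, matching whole reads within 0.15; no interval was computed from them. The lists and members were chosen with earlier results of these data known. Named were all members, called pathway genes (up to 8 a list and comparison by size), *Spry1*, *Spry2*, *Spry4*, *Dusp6*, *Etv4*, *Etv5* and *Fgfr4*, and the 3 genes most like the member with the largest difference. Alternatives were other filters, pseudocounts, scalings and models, a replicate block and leaving out each library; the osteoblast marker scaling was chosen after seeing the data. One relay gene is not reported here. Promoter sequences came from a RefSeq table of GRCm38.p6.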

Additional observations from a re-analysis of the deposited data

How the results depend on the processing

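With PTH, calls depended on the settings. The numbers of genes called higher and lower were 10 and 8 without a filter, 0 and 1 with an unmoderated linear model (3823 genes at an unadjusted *p* under 0.05), 479 and 1095 with libraries scaled to a common sum, and 74 and 1802 with the osteoblast marker scaling, against 830 and 1151. Leaving out 1 library gave 0 to 674 higher and 0 to 895 lower genes. Members called higher numbered 0 without a filter or moderation (5 and 4 at an unadjusted *p* under 0.05), 1 with the marker scaling, and 0 to 2 without 1 library. Pathway genes called higher numbered 1, 0 and 1 under these 3 settings and 0 to 10 without 1 library. Those called lower numbered 0 without a filter or moderation, 2 with a pseudocount of 0.1 or quantile normalization, 1 without a trend, and 0 to 2 without 1 library. The cause was not tested, except that fits without 1 library had fewer samples.

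The log2 fold changes with PTH of *Fgf1*, *Fgf18*, *Fgfr2* and *Etv5* reversed to -0.26, -0.12, -0.12 and -0.30 under the marker scaling. That scaling shifted the median of all genes to -0.38, and each of these values stayed above it. With *Slpi*, *Fgf2* reversed to 0.20 without *Slpi* replicate 1 and *Spry2* to 0.003 and 0.007 without mock replicate 1 or *Slpi* replicate 3, and leaving out 1 library gave -0.28 to 0.20 for *Fgf2* and -0.073 to 0.007 for *Spry2*. The 5 members called with *Slpi* kept their calls, and *Fgf18* was also called in 3 of 15 alternatives. Scaled to a common sum, 2464 genes were higher and 4574 lower with *Slpi*, against 3658 and 3315, and the median of all genes was -0.09. The labels give replicate numbers but do not say whether same-numbered libraries were handled together. Deviations of same-numbered libraries from their group means correlated at 0.0294, 0.0735 and 0.102 with PTH. With *Slpi* they correlated at 0.0385, -0.0523 and -0.000264. Such values cannot decide whether the libraries were paired. A replicate block gave 1028 higher and 1234 lower genes with PTH and 3752 and 3420 with *Slpi*, and under it *Fgfr3* passed (adjusted *p* = 0.0326) and *Fgfrl1* did not (adjusted *p* = 0.075). Read depth is unknown, which limits what *Fgf9* and, in MC3T3-E1 cells, *Fgf1* can show.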

Other observations

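Heparan sulphate, the sugar that holds FGF and its receptor together, is carried by core proteins and trimmed by enzymes. With PTH, 8 of 26 tested genes of this list were called higher and 2 lower (limma, adjusted *p* under 0.05), against 6.38% and 8.85% of all genes, and the median log2 fold change was 0.32 against 0.01. Higher were the core protein genes *Sdc1* (log2 fold change 0.94), *Gpc6* (0.75), *Gpc4* (0.71), *Sdc3* (0.70), *Gpc1* (0.69), *Hspg2* (0.69) and *Sdc2* (0.61) and the chain polymerase gene *Ext2* (0.57), and lower were the sulphotransferase genes *Hs3st3b1* (-1.41) and *Hs6st1* (-0.46). *Ext2* and *Hs6st1* are named to complete the counts. *Hs3st3b1* had an FPKM of 3.91, 3.98 and 2.14 with vehicle and 0.844, 0.646 and 0.346 with PTH, so that it passed the filter on low values through the vehicle libraries alone. With the osteoblast marker scaling, *Hs3st3b1* kept its call (-1.66, adjusted *p* = 0.0286 by limma), and the 7 core protein genes lost theirs, with log2 fold changes between 0.15 and 0.51.

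In *Slpi* cells 5 of 22 tested genes of the list were called higher and 10 lower, against 31.9% and 28.9% of all genes, with a median of -0.07. *Sulf1* and *Sulf2*, extracellular enzymes that remove sulphate from the chains, were both lower. *Sulf1* had an FPKM of 15.8, 15.8 and 16.4 in mock and 7.43, 7.52 and 7.30 in *Slpi* cells (log2 fold change -1.01, adjusted *p* = 8.5e-07 by limma), and *Sulf2* had 177, 182 and 175 in mock and 125, 119 and 122 in *Slpi* cells (-0.54, adjusted *p* = 5.4e-06 by limma). *Hpse*, the gene of the chain-cleaving heparanase, had 0.628, 0.767 and 0.532 in mock and 1.96, 2.10 and 1.89 in *Slpi* cells (0.86, adjusted *p* = 5.4e-05 by limma), and passed the filter through the *Slpi* libraries alone. *Hs6st2* (-0.45), *Hs6st1* (-0.41) and *Ndst2* (-0.29) were lower, and *Gpc1* (0.33) and *Sdc3* (0.30) were higher. The other calls, named after their values were seen, were *Gpc6* (-0.28), *Gpc4* (-0.27), *Sdc4* (-0.20), *Agrn* (-0.18) and *Hspg2* (-0.17) among the lower and *Hs2st1* (0.26) and *Sdc2* (0.11) among the higher genes, so that 5 core protein genes were lower and 3 higher. The 8 genes named first kept their calls under all 15 alternatives.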
